A study of Homo sapiens with 12 samples.

Results

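The 31 genes described here carry out or control the synthesis of cholesterol and fatty acids. They were taken as a fixed list by Entrez identifier: 7 enzymes of the mevalonate pathway, 11 of sterol synthesis, 6 regulators and transport factors, and 7 enzymes of fatty acid synthesis and desaturation. All 31 were found among the 21508 genes of the series, and all 31 passed the filter on low counts and were tested among 15990 genes. The measurements came from poly(A)-selected RNA of EndoC-βH1, a line of human beta cells established from fetal pancreas by immortalisation, so every library is from 1 line. There were 4 groups of 3 libraries. The first received siRNAs against TUNAR, a long noncoding RNA gene, and then 1-AKP, an inhibitor of the kinase GSK3, at 5 µM for 24 hours. The second received the negative (scrambled) siRNA and the same 1-AKP treatment. The third received TUNAR siRNAs and the DMSO vehicle for 24 hours, and the fourth the negative siRNA and DMSO. The siRNAs were delivered by lipid transfection 2 days before the treatment in all groups, and replicates 1 and 2 were at passage 74 and replicate 3 at passage 75.

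Library totals ran from 15653786 to 15986834 expected counts. Beta-cell markers were high in all 12 libraries, with INS at 9207 to 12851 CPM, counts scaled to the library total, and CHGA at 10559 to 11932 CPM, and the alpha-cell hormone gene GCG was at 0 to 0.444 CPM. TUNAR averaged 10.3 ± 3.32 CPM with TUNAR siRNAs and 1-AKP, against 29.9 ± 1.69 CPM with the negative siRNA and 1-AKP. In DMSO it averaged 6.37 ± 2.24 CPM with TUNAR siRNAs, against 17.3 ± 2.76 CPM with the negative siRNA (SD, n = 3 each). The replicate 1 libraries stood apart from replicates 2 and 3 over many genes in all 4 groups, and that difference is described after the siRNA and treatment results.

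The mevalonate pathway condenses acetyl-CoA units into isoprenoid building blocks, and the sterol branch joins them into squalene, closes the rings to lanosterol and trims lanosterol to cholesterol. Fatty acid synthesis starts from the same cytosolic acetyl-CoA. Both branches are switched on by the SREBP transcription factors, which the escort protein SCAP carries out of the endoplasmic reticulum when sterol is low and the INSIG proteins hold back when sterol is high. GSK3 is known to phosphorylate the active nuclear SREBPs and so mark them for breakdown. Beta cells use cholesterol in the membranes of insulin granules.

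Promoters of SREBP targets are known for short binding sites of SREBP itself together with CCAAT boxes of the factor NF-Y and GC boxes of Sp1. RefSeq windows of the 250 bases before a start (GRCh38.p14) were at hand for 27 of the 31 genes, with 37 windows in all; ACAT2, FDFT1, SQLE and FASN had none. The letters TCACNCCAC, searched on both strands as a sterol regulatory element, occurred in 1 of 27 genes, SREBF2, and in 1.14% of the 12444 tested genes that had a window. CCAAT occurred in 19 of 27 (70.4%), against 40.7% of those tested genes, and in 8 of the 9 sterol enzymes with a window. GGGCGG occurred in 26 of 27 (96.3%), against 70.9%, and the E-box CACGTG in 3 of 27 (11.1%), against 10.7%. The windows of NSDHL, EBP, DHCR7 and HSD17B7 are shown because these are the sterol enzymes that changed with 1-AKP, that of MSMO1 because it was the member with the lowest p for the siRNAs, and that of SREBF2 because it was the gene with the SREBP letters. They lie at the following places: NSDHL at chrX:152830813-152831062 (plus strand), EBP at chrX:48521558-48521807 (plus), DHCR7 at chr11:71448394-71448643 (minus; the other DHCR7 window held no CCAAT), HSD17B7 at chr1:162790452-162790701 (plus), MSMO1 at chr4:165327419-165327668 (plus) and SREBF2 at chr22:41832855-41833104 (plus). Each reads 5′ to 3′ and ends at the base before the start, and capitals mark CCAAT on either strand and, in SREBF2, also TCACNCCAC.
NSDHL: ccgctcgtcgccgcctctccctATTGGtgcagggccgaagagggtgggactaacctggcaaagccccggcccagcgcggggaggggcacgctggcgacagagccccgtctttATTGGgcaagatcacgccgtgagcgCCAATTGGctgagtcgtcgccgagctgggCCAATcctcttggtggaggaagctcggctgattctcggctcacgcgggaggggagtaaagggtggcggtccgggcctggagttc
EBP: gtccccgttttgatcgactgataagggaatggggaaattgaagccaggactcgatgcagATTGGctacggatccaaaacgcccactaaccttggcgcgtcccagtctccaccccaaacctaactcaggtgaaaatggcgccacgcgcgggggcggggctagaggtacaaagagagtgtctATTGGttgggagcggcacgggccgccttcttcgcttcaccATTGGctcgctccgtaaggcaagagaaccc
DHCR7: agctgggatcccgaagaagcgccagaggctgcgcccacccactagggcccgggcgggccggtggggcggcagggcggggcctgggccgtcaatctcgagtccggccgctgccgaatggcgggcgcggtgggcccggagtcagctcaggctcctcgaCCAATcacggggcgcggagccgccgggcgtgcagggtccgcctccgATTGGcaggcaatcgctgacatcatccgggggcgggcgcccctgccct
HSD17B7: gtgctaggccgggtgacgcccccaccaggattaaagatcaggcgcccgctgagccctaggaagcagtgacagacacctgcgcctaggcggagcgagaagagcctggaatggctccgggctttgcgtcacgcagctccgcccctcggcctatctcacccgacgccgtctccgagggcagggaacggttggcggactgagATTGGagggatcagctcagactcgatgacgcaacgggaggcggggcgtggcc
MSMO1: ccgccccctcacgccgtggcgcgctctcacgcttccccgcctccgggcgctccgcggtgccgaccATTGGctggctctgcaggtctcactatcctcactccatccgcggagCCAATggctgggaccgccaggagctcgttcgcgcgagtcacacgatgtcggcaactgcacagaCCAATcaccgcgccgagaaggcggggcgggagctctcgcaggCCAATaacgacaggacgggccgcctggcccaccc
SREBF2: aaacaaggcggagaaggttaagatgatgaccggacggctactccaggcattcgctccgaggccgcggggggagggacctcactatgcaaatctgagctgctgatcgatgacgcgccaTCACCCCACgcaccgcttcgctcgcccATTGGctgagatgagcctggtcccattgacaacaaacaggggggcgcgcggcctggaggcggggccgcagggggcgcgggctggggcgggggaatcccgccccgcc
The NSDHL window held 5 CCAAT matches over both strands, of which 2 overlap in the letters CCAATTGG, and no GGGCGG. The MSMO1 window held 4 CCAAT matches, the EBP window 3, the DHCR7 window 2, and the HSD17B7 and SREBF2 windows 1 each. A match of letters is a description and no evidence of binding. Only the stated letters were searched, so a window without them may still hold a site.

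Levels were compared between genes in FPKM, the deposited unit that accounts for gene length. In DMSO with the negative siRNA, SCD, the stearoyl-CoA desaturase that makes oleate, had by far the highest level at 700.1 ± 11.8 FPKM (SD, n = 3). Next came FADS2, a desaturase of polyunsaturated fatty acids, at 406.3 FPKM and ACLY, which makes cytosolic acetyl-CoA from citrate, at 255.3 FPKM. The 3 did not overlap with one another or with the genes below them. EBP (180.0 FPKM), CYP51A1 (178.7), FDPS (175.5), INSIG1 (171.2) and HMGCS1 (155.7) formed the next group, in which neighbours overlapped between libraries. FDPS has 10 named pseudogenes and CYP51A1 and IDI1 have 3 each, so their levels may include shared reads. FADS1 (142.9 FPKM), which overlaps FADS2 on the chromosome, FDFT1 (141.8) and MSMO1 (137.2) overlapped likewise, and below them lay FASN (116.4) and SREBF2 (113.8).

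The middle of the order, again by mean FPKM in DMSO with the negative siRNA, held LSS (87.6 FPKM), SQLE (86.2), ACAT2 (80.1), SREBF1 (77.4), DHCR7 (69.2) and IDI1 (67.1), each overlapping its neighbour. HSD17B7 (47.1 FPKM), MVK (45.8) and TM7SF2 (45.4) overlapped, as did PMVK (35.3), MVD (32.8), SC5D (30.6), STARD4 (29.5), ACACA (27.6) and SCAP (27.3), each with the next. NSDHL (13.9 FPKM), INSIG2 (11.1) and ELOVL6 (9.03), which lengthens palmitate, were the 3 lowest and did not overlap. Of the 30 neighbouring pairs in the order, 19 overlapped between libraries and 11 did not. INSIG1 was thus at a much higher level than its paralogue INSIG2, and within the sterol branch the lowest level was that of NSDHL.

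**Figure D1:**
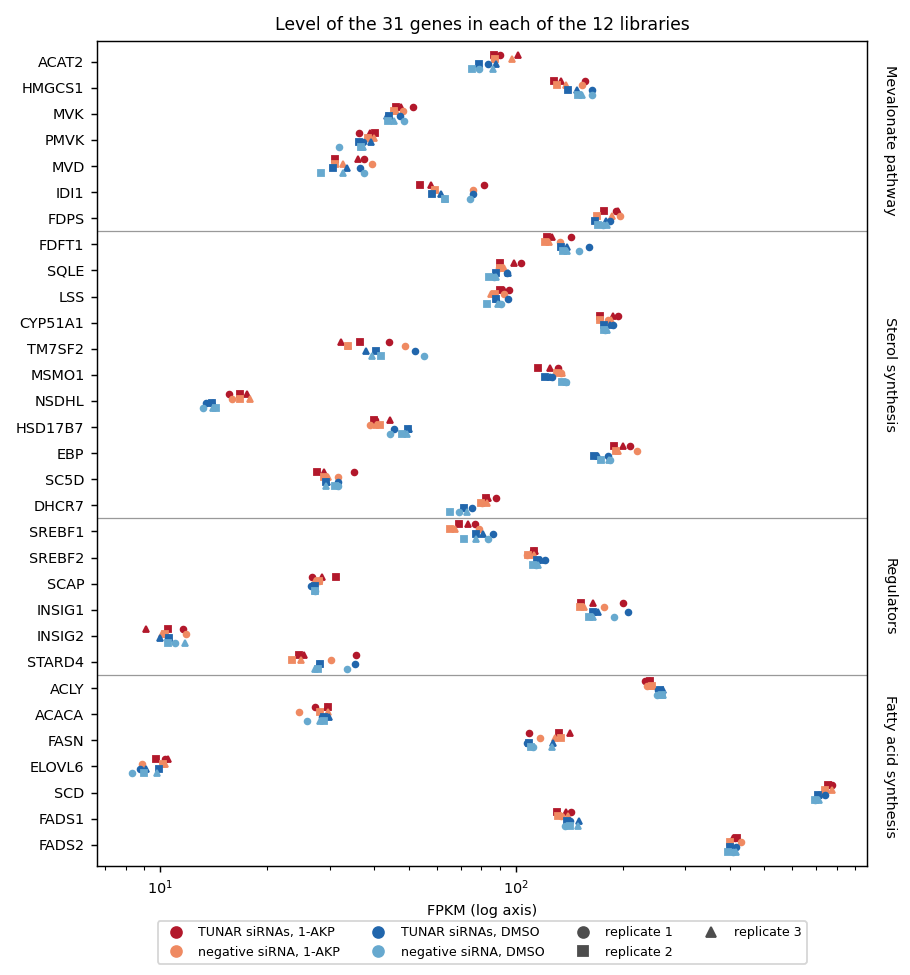
FPKM on a log axis for each of the 31 genes by pathway step, with 1 point for each of the 12 libraries, coloured by group and shaped by replicate number. SCD, FADS2 and ACLY stand to the right of all others, and the 4 groups lie close together for every gene compared with the distance between genes.

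The 31 genes together took 1.38% to 1.48% of the counts of a library. Summed over genes, the 7 mevalonate enzymes ran from 1413 to 1668 CPM, the 11 sterol enzymes from 2495 to 2827 CPM, the 6 regulators from 1572 to 1903 CPM and the 7 fatty acid enzymes from 8015 to 8895 CPM over the 12 libraries. SCD alone made up 26.9% to 29.6% of the members' counts. The coefficient of variation of CPM over all 12 libraries was lowest for FADS2 (2.84%), SREBF2 (2.88%), CYP51A1 (3.58%) and ACLY (3.66%). It was highest for TM7SF2 (17.2%), STARD4 (14.2%), IDI1 (13.7%) and NSDHL (11.5%). The map of deviations shows that these 4 did not vary in the same way: NSDHL divided by treatment, whereas TM7SF2, STARD4 and IDI1 divided mainly by replicate number.

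**Figure D2:**
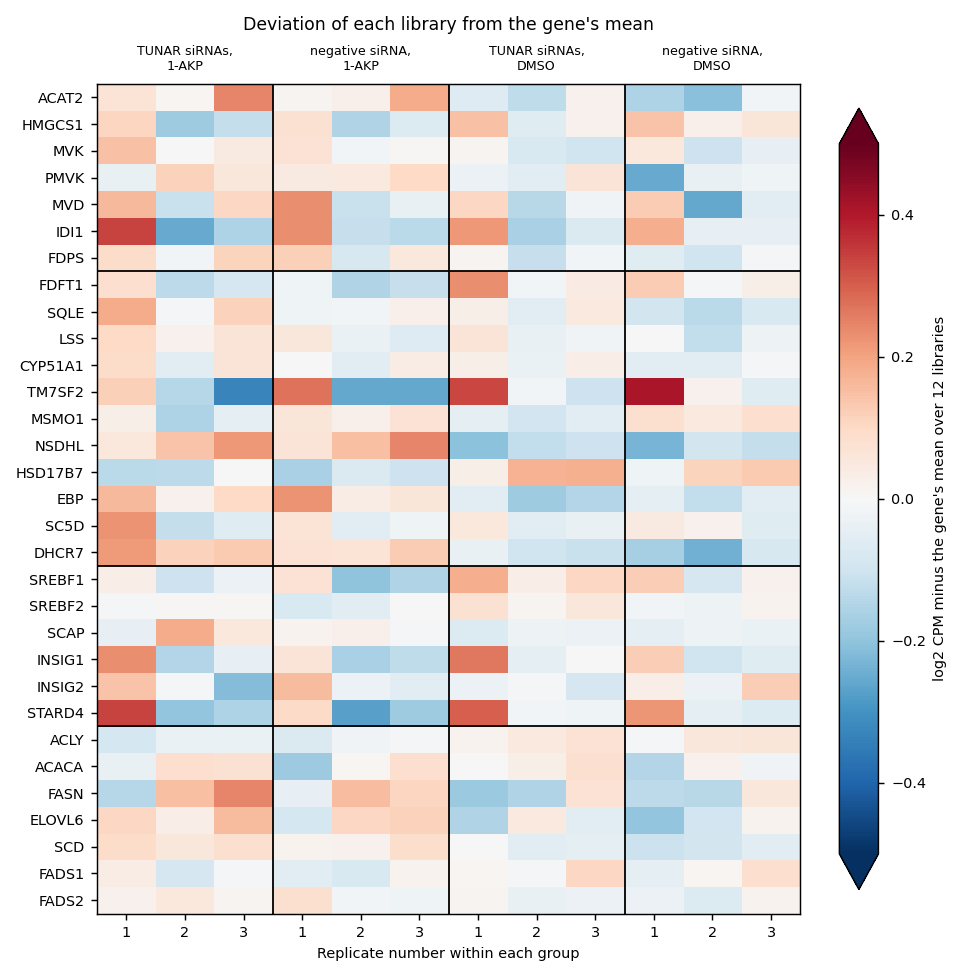
Each cell is a library's log2 CPM minus the gene's mean over the 12 libraries, with genes down the page by pathway step and libraries across by group and replicate number. NSDHL, EBP and DHCR7 are higher in the 6 libraries with 1-AKP on the left, and IDI1, TM7SF2, INSIG1 and STARD4 are higher in replicate 1 of each group.

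The first comparison asked what the GSK3 inhibitor did to these genes. With 1-AKP, averaged over both siRNAs, 7 of 31 genes changed: NSDHL, DHCR7, EBP, ACAT2 and SCD rose, and HSD17B7 and ACLY fell. The changes were small, from a 1.23-fold higher level of NSDHL to a level of HSD17B7 that was 0.870 times that in DMSO. The 7 are 22.6% of the members, beside the 19.2% of all 15990 tested genes that passed in this comparison. Calls for 1-AKP here are from the fit without a replicate block, whose spread includes the differences between replicate numbers described below. The block was left out because replicate 2 fell below a cut of 0.1 on correlations across treatments, described under processing. Its correlation was 0.0634 with TUNAR siRNAs and 0.0871 with the negative siRNA, while replicates 1 and 3 lay above the cut, at 0.159 to 0.427. With a block 22 of the 31 (71.0%) were called, beside 39.7% of all tested genes. Over all genes 9.97% rose and 9.25% fell. The median log2 fold change of the 31 genes was 0.03, against 0.00 over all genes tested, and 0.01 with library size as the only scaling, which moved the median of all genes to -0.02. Here and below an adjusted p is from edgeR's quasi-likelihood test with Benjamini-Hochberg adjustment over all tested genes, called under 0.05.

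In the sterol branch 3 of 11 enzymes rose and 1 fell. NSDHL, a dehydrogenase that removes a methyl group at carbon 4 of the sterol ring, had 24.9, 26.5 and 27.9 CPM with TUNAR siRNAs and 1-AKP and 25.1, 26.6 and 28.4 CPM with the negative siRNA and 1-AKP. The DMSO libraries had 20.8, 22.0 and 22.3 CPM with TUNAR siRNAs and 20.4, 22.5 and 22.1 CPM with the negative siRNA. All 6 libraries with 1-AKP lay above all 6 with DMSO, and the log2 fold change was 0.29 (SE 0.0522, adjusted p = 0.00185).

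HSD17B7, the keto-reductase that acts right after NSDHL in the same demethylation, went the other way. It had 59.9, 60.1 and 65.9 CPM with TUNAR siRNAs and 1-AKP and 58.8, 62.6 and 61.3 CPM with the negative siRNA and 1-AKP, against 67.2, 74.3 and 74.4 CPM with TUNAR siRNAs and DMSO and 64.9, 71.2 and 72.0 CPM with the negative siRNA and DMSO. The 2 treatments overlapped through the highest library with 1-AKP and the lowest with DMSO, and the log2 fold change was -0.20 (SE 0.0444, adjusted p = 0.00681). HSD17B7 has 2 named pseudogenes in the annotation, and how the authors' counting shared reads among such copies is not known. MSMO1, the oxidase that opens the same demethylation, averaged 287.8 ± 16.6 CPM with 1-AKP and 288.8 ± 15.7 CPM with DMSO (SD, n = 6 each) and did not pass the test. The 3 enzymes of this step thus showed a rise, a fall and no called change.

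EBP and DHCR7 act at the end of the branch, EBP shifting a double bond in the ring and DHCR7 reducing 7-dehydrocholesterol to cholesterol. DHCR7 had 236.6, 221.6 and 223.9 CPM with TUNAR siRNAs and 1-AKP and 215.1, 214.4 and 223.2 CPM with the negative siRNA and 1-AKP. In DMSO it had 199.2, 190.8 and 189.1 CPM with TUNAR siRNAs and 182.3, 173.0 and 193.2 CPM with the negative siRNA. The treatments did not overlap, and the log2 fold change of DHCR7 was 0.24 (SE 0.0340, adjusted p = 0.000394), the lowest p among the 31.

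EBP had 246.6, 223.3 and 236.0 CPM with TUNAR siRNAs and 1-AKP and 257.3, 225.8 and 229.6 CPM with the negative siRNA and 1-AKP. With DMSO the values were 211.4, 194.7 and 198.9 CPM for TUNAR siRNAs and 213.0, 201.9 and 212.3 CPM for the negative siRNA. Again no library with 1-AKP reached down to one with DMSO, and the log2 fold change was 0.20 (SE 0.0409, adjusted p = 0.00393). SC5D, the desaturase between EBP and DHCR7, was not called.

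Without the block the earlier sterol enzymes did not pass. FDFT1, which makes squalene, ran from 268.8 to 316.0 CPM with 1-AKP and from 295.2 to 350.6 CPM with DMSO (log2 fold change -0.14, SE 0.0511, adjusted p = 0.0758). SQLE, the epoxidase that acts on squalene, ran from 270.4 to 312.6 CPM with 1-AKP and from 250.1 to 284.5 CPM with DMSO (0.09, SE 0.0358, adjusted p = 0.0866). TM7SF2, a sterol reductase, ran from 51.7 to 78.5 CPM with 1-AKP and from 60.4 to 86.3 CPM with DMSO (-0.19, SE 0.131, adjusted p = 0.359), and its spread lay mainly between replicate numbers. LSS and CYP51A1, which close and demethylate the ring system, were not called in either fit. With the block FDFT1 (adjusted p = 1.32e-06), TM7SF2 (6.41e-06) and SQLE (0.00089) were called, where 39.7% of all tested genes were called.

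**Figure D3:**
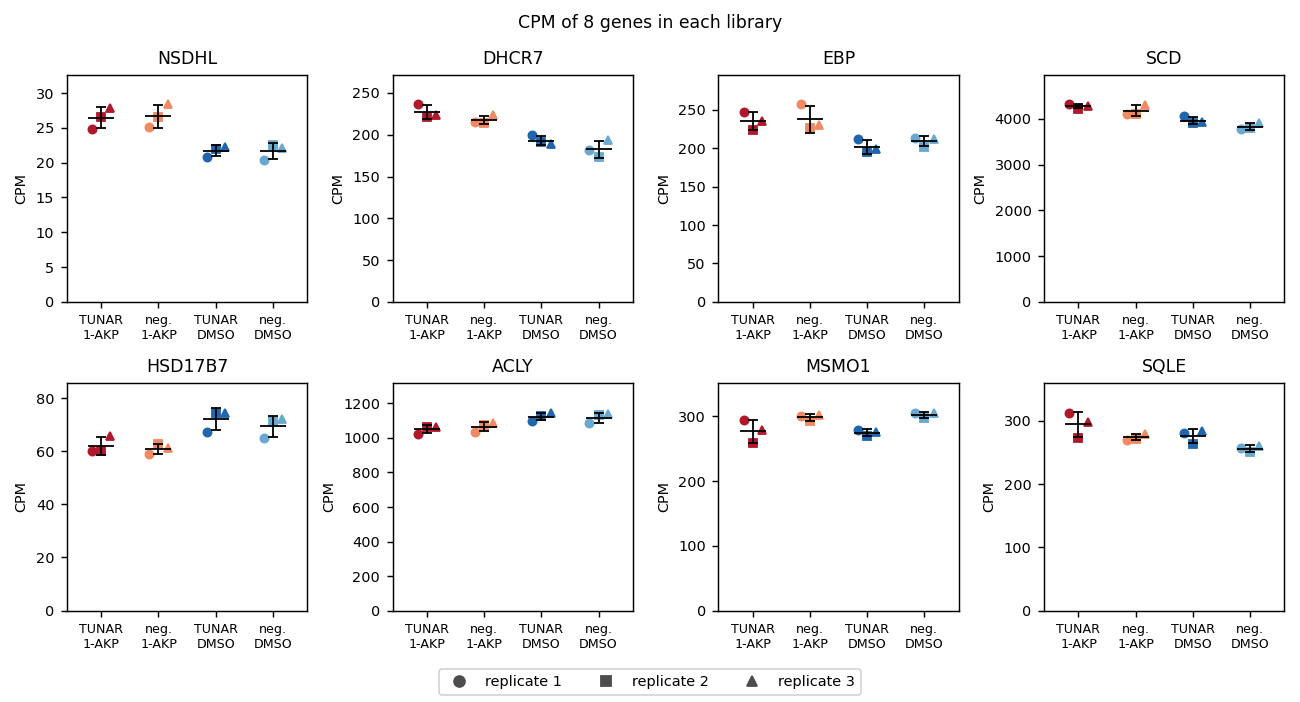
CPM from 0 of 8 genes in each library by group, with marker shape for the replicate number and black bars for the group mean and SD (n = 3). The 6 points with 1-AKP lie above the 6 with DMSO for NSDHL, DHCR7, EBP and SCD and below them for ACLY, and within each treatment the mean of MSMO1 is lower, and that of SQLE higher, with TUNAR siRNAs than with the negative siRNA.

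Of the 7 mevalonate enzymes 1 rose and none fell. ACAT2, the thiolase that makes acetoacetyl-CoA, had 144.8, 139.0 and 163.3 CPM with TUNAR siRNAs and 1-AKP and 139.1, 140.3 and 156.9 CPM with the negative siRNA and 1-AKP. With DMSO there were 132.0, 126.4 and 139.9 CPM with TUNAR siRNAs and 123.9, 119.2 and 136.7 CPM with the negative siRNA. The treatments overlapped by less than 1 CPM, and the log2 fold change was 0.18 (SE 0.0522, adjusted p = 0.0261). This call was lost when any 1 of 5 libraries was left out (replicate 1 or 2 of the negative siRNA with DMSO, replicate 2 of TUNAR siRNAs with DMSO, or replicate 3 of either siRNA with 1-AKP; adjusted p up to 0.0718). The ACAT2 gene overlaps TCP1 and SOD2 in the annotation, and the labels state no strand marking. HMGCS1, which makes HMG-CoA, had 705.6 to 860.2 CPM with 1-AKP and 765.6 to 885.4 CPM with DMSO (-0.11, SE 0.0568, adjusted p = 0.211). FDPS, which makes farnesyl diphosphate, had a log2 fold change of 0.10 (SE 0.0404, adjusted p = 0.119), PMVK of 0.11 (SE 0.0485, adjusted p = 0.147) and MVK of 0.08 (SE 0.0403, adjusted p = 0.178), the last 2 being the kinases of the pathway. Without the block none of these passed, nor did MVD or IDI1. With the block all of them but IDI1 were called, HMGCS1 at an adjusted p of 1.38e-05 and the others at 0.000558 to 0.0477.

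Without a block none of the 6 regulators was called by edgeR, DESeq2 or limma. In edgeR 1 of them, SREBF1, was under an unadjusted p of 0.05, as were 5063 of all 15990 tested genes. SREBF1, the gene of the SREBP that mainly drives fatty acid synthesis, ran from 330.9 to 399.5 CPM with 1-AKP and from 358.4 to 431.0 CPM with DMSO (log2 fold change -0.12, SE 0.0520, adjusted p = 0.120). SREBF2, the gene of the SREBP that mainly drives cholesterol synthesis, ran from 575.3 to 608.7 CPM with 1-AKP and from 595.6 to 639.3 CPM with DMSO (-0.04, SE 0.0252). SCAP had a log2 fold change of 0.08 (SE 0.0369, adjusted p = 0.165). The log2 fold changes of the 6 regulators, which include INSIG1, INSIG2 and the sterol carrier STARD4, ran from -0.12 to 0.08. With the block SREBF1 (adjusted p = 9.05e-06), STARD4 (0.00453), INSIG1 (0.0191) and SCAP (0.0216) were called.

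Of the 7 fatty acid enzymes 1 rose and 1 fell. SCD had 4318, 4221 and 4285 CPM with TUNAR siRNAs and 1-AKP and 4101, 4114 and 4309 CPM with the negative siRNA and 1-AKP. In DMSO it had 4049, 3897 and 3932 CPM with TUNAR siRNAs and 3769, 3806 and 3911 CPM with the negative siRNA. The treatments did not overlap, and the log2 fold change of 0.12 (SE 0.0244, adjusted p = 0.00472) fell on the most abundant member.

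ACLY had 1025, 1063 and 1063 CPM with TUNAR siRNAs and 1-AKP and 1034, 1074 and 1084 CPM with the negative siRNA and 1-AKP, against 1101, 1126 and 1145 CPM with TUNAR siRNAs and DMSO and 1085, 1133 and 1136 CPM with the negative siRNA and DMSO. The treatments were only just apart, and the log2 fold change was -0.08 (SE 0.0260, adjusted p = 0.0379). The ACLY call was lost in 8 of the 12 fits that left out 1 library, with adjusted p up to 0.0910: the 8 were replicate 2 or 3 of either siRNA with DMSO, replicate 1 or 2 of the negative siRNA with 1-AKP, and replicate 1 or 3 of TUNAR siRNAs with 1-AKP. FASN, the fatty acid synthase itself, ran from 937.9 to 1226 CPM with 1-AKP and from 910.5 to 1089 CPM with DMSO (0.16, SE 0.0719, adjusted p = 0.153). ELOVL6 had a log2 fold change of 0.14 (SE 0.0572, adjusted p = 0.112) and FADS1 of -0.05 (SE 0.0347, adjusted p = 0.318). Without the block these 3 did not pass, nor did FADS2 or the acetyl-CoA carboxylase gene ACACA. With the block FASN (adjusted p = 0.0417), ELOVL6 (0.00986) and FADS1 (0.0343) were called.

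In all, 4 of the 31 genes lay wholly above DMSO with 1-AKP and 1 wholly below it, against 10.5% of all tested genes whose 6 and 6 libraries did not overlap in either direction. NSDHL, HSD17B7, EBP, DHCR7 and SCD kept their calls whichever 1 library was left out. With replicate 2 or replicate 3 left out of all groups, DHCR7 was the only member called, and with replicate 1 left out 12 members were called. These counts are given without the share of all tested genes called in the same fits. They do not show whether members were called more often than other genes. Summed marker levels of the other cell types overlapped between the treatments: markers of other islet cells summed to 4.31 to 29.6 CPM with 1-AKP and 4.63 to 34.8 CPM with DMSO, and beta-cell markers to 21594 to 26147 CPM with 1-AKP and 22066 to 26383 CPM with DMSO. In bulk RNA, fewer cells of a type and less RNA per cell cannot be told apart.

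The treatment was also tested within each siRNA. With TUNAR siRNAs 3 members rose and none fell, against 7.51% of all tested genes called in either direction. They were NSDHL (log2 fold change 0.28, adjusted p = 0.0356), EBP (0.22, adjusted p = 0.0358) and DHCR7 (0.24, adjusted p = 0.0113). With the negative siRNA 3 members rose and none fell, against 7.3% of all tested genes. They were NSDHL (0.30, adjusted p = 0.0283), DHCR7 (0.25, adjusted p = 0.00885) and SCD (0.12, adjusted p = 0.0470). With TUNAR siRNAs no member stayed called without replicate 2 or 3 of TUNAR siRNAs with DMSO, and 1 without replicate 3 of TUNAR siRNAs with 1-AKP or replicate 3 of the negative siRNA with DMSO. With the negative siRNA 1 stayed called without any 1 of its DMSO libraries or without its replicate 2 or 3 with 1-AKP. The share of all tested genes called in these fits is not given, so the counts do not show a loss particular to the members. The 2 comparisons share no library, and 28 of 31 genes had the same sign in both, with Pearson's r of 0.959 over the 31 genes; genes are not independent replicates, and the r is a description. The exceptions INSIG2, MSMO1 and SC5D had small values in both. That EBP passed with one siRNA and SCD with the other does not show a difference between siRNAs. The test of that difference, given below, called no member. Its SE was 0.0817 for EBP and 0.0488 for SCD, so a small difference could go unseen.

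**Figure D4:**
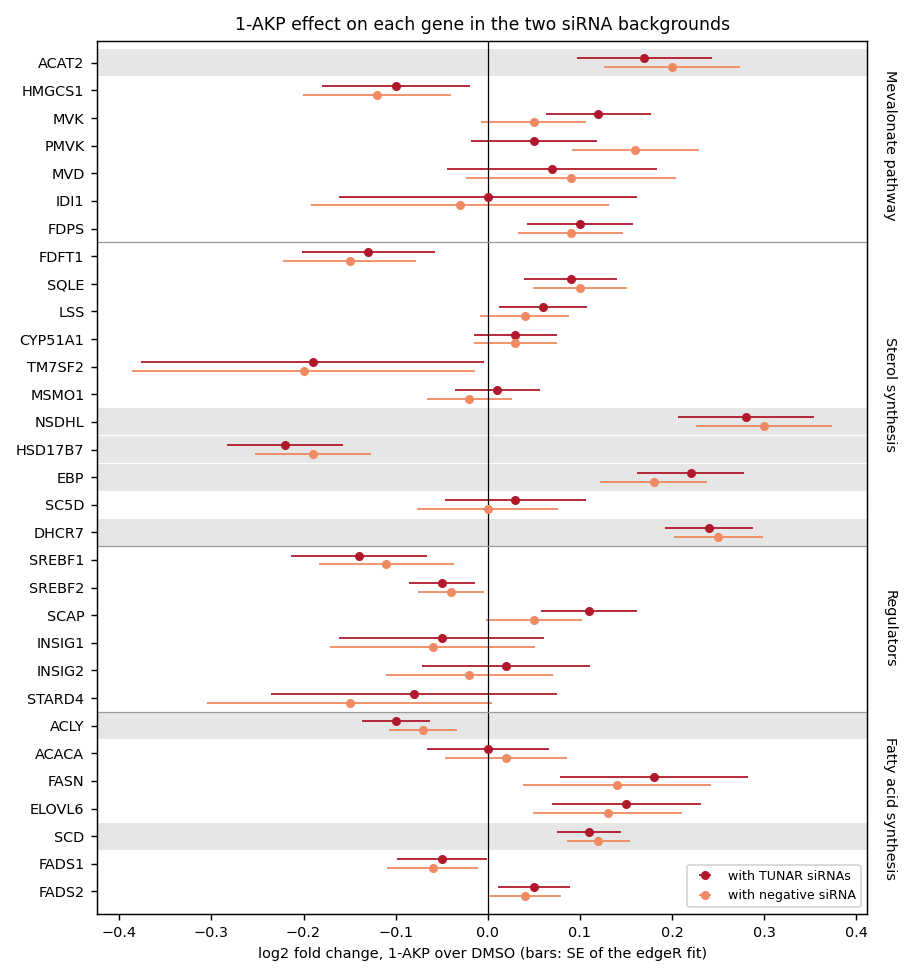
Log2 fold change of 1-AKP over DMSO for each gene, with TUNAR siRNAs (dark points) and with the negative siRNA (light points), bars giving the SE of the edgeR fit. Grey bands mark the 7 genes called when both siRNAs are averaged, and the paired points of a gene lie within 0.11 of each other throughout.

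A further list of 33 lipid genes outside the 31 was tested in the same fit, of which 7 rose and 2 fell with 1-AKP (27.3%, beside 19.2% of all tested genes). PCYT2, an enzyme of phosphatidylethanolamine synthesis, had 64.9 ± 1.89 CPM with 1-AKP and 50.9 ± 4.48 CPM with DMSO (SD, n = 6 each; log2 fold change 0.35, SE 0.0534, adjusted p = 0.000638). TMEM97, a sterol-responsive membrane protein, rose by a log2 fold change of 0.25 (SE 0.0477, adjusted p = 0.00287), ELOVL1, an elongase of very long chains, by 0.24 (SE 0.0400, adjusted p = 0.00132) and HACD3, a dehydratase of the elongation cycle, by 0.14 (SE 0.0281, adjusted p = 0.00336). MBTPS1, the site-1 protease that cuts SREBPs, had 143.0 ± 4.22 CPM with 1-AKP and 166.3 ± 4.40 CPM with DMSO (log2 fold change -0.22, SE 0.0299, adjusted p = 0.000353). SOAT1, which esterifies cholesterol for storage, had a log2 fold change of -0.20 (SE 0.0321, adjusted p = 0.000885). Of 9 tested genes of fatty acid oxidation none rose and 1 fell (11.1%).

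The second comparison asked what silencing TUNAR did to the same genes. By edgeR's quasi-likelihood test without pairing no member was called, in 1-AKP (0.0% of all tested genes called), in DMSO (0.0125%) or averaged over both treatments (0.175%). At an unadjusted p under 0.05 there were 1 member in 1-AKP, 1 in DMSO and 2 in the average. Of all 15990 tested genes 743, 776 and 1392 were under it in the same order. DESeq2 and limma called 0 members in each of the 3. Across the siRNAs, same-numbered libraries departed from their group means in like ways, and a fit that takes the number as a block was therefore added. With the block, 1 member was called in 1-AKP (2.77% of all tested genes called), 1 in DMSO (3.05%) and 6 in the average (8.59%), of which 5 rose and 1 fell.

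MSMO1 was the member called in each. In DMSO it had 278.8, 269.4 and 276.7 CPM with TUNAR siRNAs, against 304.7, 297.6 and 305.5 CPM with the negative siRNA, with no overlap. In 1-AKP it had 294.1, 258.6 and 278.6 CPM with TUNAR siRNAs, against 300.0, 293.2 and 302.5 CPM with the negative siRNA, which overlapped. It was lower with TUNAR siRNAs in 6 of 6 pairs of libraries with the same replicate number and treatment. The log2 fold change averaged over both treatments was -0.12 with and without the block (with it SE 0.0218 and adjusted p = 0.000146, without it SE 0.0325 and adjusted p = 0.182). In the block fit the averaged call held with any of the 3 numbers removed, whereas the calls in DMSO (-0.14, adjusted p = 0.00609) and in 1-AKP (-0.11, adjusted p = 0.0448) were lost without replicate 2 or replicate 3, with adjusted p up to 0.164 and 0.537.

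SQLE moved in the opposite direction. In 1-AKP it had 312.6, 273.1 and 297.8 CPM with TUNAR siRNAs, against 270.4, 272.1 and 279.6 CPM with the negative siRNA. In DMSO it had 280.2, 264.2 and 284.5 CPM with TUNAR siRNAs, against 257.5, 250.1 and 260.9 CPM with the negative siRNA. It was higher with TUNAR siRNAs in 6 of 6 pairs, with a log2 fold change of 0.11 in the average (block fit SE 0.0227, adjusted p = 0.00165; without the block adjusted p = 0.332), and in the block fit this call also remained without any 1 replicate number.

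The other 4 averaged calls of the block fit were smaller and depended on single replicate numbers. INSIG1 averaged 519.8 ± 72.5 CPM with TUNAR siRNAs and 486.3 ± 42.1 CPM with the negative siRNA in 1-AKP, and 540.0 ± 64.2 CPM with TUNAR siRNAs and 507.6 ± 42.8 CPM with the negative siRNA in DMSO (SD, n = 3 each). It was higher in 6 of 6 pairs (0.09, block fit adjusted p = 0.00329), and the call was lost without replicate 1 (adjusted p = 0.0978). LSS was higher in 6 of 6 pairs (0.06, block fit adjusted p = 0.0424), and SREBF1 (0.07, block fit adjusted p = 0.0262) and ACACA (0.08, block fit adjusted p = 0.0320) in 5 of 6. In the block fit, LSS and SREBF1 were lost without replicate 2 or replicate 3, and ACACA without any 1 of the 3. Without the block the adjusted p of these 4 ran from 0.677 to 0.858. The remaining 25 members were not called in the average with either fit. Among them CYP51A1, SREBF2 and STARD4 were also higher with TUNAR siRNAs in 6 of 6 pairs, so that count did not set the called members apart. The share of all tested genes with 6 of 6 pairs in one direction was not counted.

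Outside the 31, the gene of the lipid lists called in both fits was ERLIN2, an endoplasmic reticulum protein that takes part in the breakdown of membrane proteins there. It had 53.2, 51.6 and 49.0 CPM with TUNAR siRNAs and 74.0, 64.4 and 70.7 CPM with the negative siRNA in 1-AKP. The DMSO libraries showed 51.9, 47.1 and 48.3 CPM with TUNAR siRNAs and 66.8, 64.3 and 60.2 CPM with the negative siRNA. The siRNA groups did not overlap in either treatment, and the averaged log2 fold change was -0.41 (without the block SE 0.0469 and adjusted p = 0.00447, with it adjusted p = 1.02e-10). HADHB, a subunit of the mitochondrial trifunctional protein of fatty acid oxidation, had a log2 fold change of -0.24 (block fit SE 0.0304, adjusted p = 5.25e-07) and was lower with TUNAR siRNAs in 6 of 6 pairs. MBTPS2, the site-2 protease that completes SREBP cleavage, had 0.12 (block fit SE 0.0267, adjusted p = 0.00249), and SCD5, another stearoyl-CoA desaturase gene, had 0.14 (block fit SE 0.0434, adjusted p = 0.0359). Of the 33 further lipid genes 1 was called without the block and 3 with it (9.09%, beside 8.59% of all tested genes), and of the 9 oxidation genes 0 without and 1 with it.

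The third comparison asked whether the siRNA effect differed between treatments. Neither the 31 genes nor any other tested gene was called for this difference by edgeR (0.0%), and 170 genes, no member among them, were under an unadjusted p of 0.05; DESeq2 called 0 genes. The lowest p among the members belonged to PMVK, whose siRNA difference was lower in 1-AKP than in DMSO by a log2 difference of -0.11 (SE 0.0970). SCAP followed with 0.06 (SE 0.0738), MVK with 0.07 (SE 0.0806) and ACLY with -0.03 (SE 0.0520), all with an adjusted p of 1. Differences of about the size of these SEs were not detectable here.

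The members also differed between replicate numbers, with most called cholesterol genes higher and the called fatty acid enzymes lower in replicate 1. In a fit of group and replicate number, 20 of 31 genes differed between replicate 1 and the mean of replicates 2 and 3, 13 higher and 7 lower in replicate 1, where 41.5% of all tested genes were called (20.0% higher, 21.5% lower). By pathway step, 5 of 7 mevalonate enzymes, 5 of 11 sterol enzymes and 3 of 6 regulators were higher, with 1, 2 and 0 lower, while 4 of 7 fatty acid enzymes were lower and none higher. The labels give replicates 1 and 2 the same passage and say nothing else about the numbers.

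On the sterol side TM7SF2 had 70.6, 78.5, 81.9 and 86.3 CPM in the 4 replicate 1 libraries and 51.7 to 66.0 CPM in the other 8 (log2 fold change 0.43, SE 0.0335, adjusted p = 5.4e-13). IDI1, which isomerises the isoprenoid unit, had 175.8, 163.2, 161.5 and 157.4 CPM in replicate 1 and 116.7 to 135.1 CPM in the others (0.36, SE 0.0371, adjusted p = 3.21e-07). STARD4 had 81.1, 68.5, 79.0 and 74.8 CPM in replicate 1 and 53.2 to 63.5 CPM in the others (0.36, SE 0.0350, adjusted p = 1.42e-10). None of the 3 overlapped between replicate 1 and the rest, and each was highest in replicate 1 in 4 of 4 groups. The share of all tested genes without such overlap was not counted, for these or for the genes that follow.

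INSIG1 had 534.5 to 613.5 CPM in replicate 1 and 456.4 to 510.8 CPM in the others (0.26, SE 0.0214, adjusted p = 2.52e-12), and HMGCS1 842.1 to 885.4 CPM in replicate 1 and 705.6 to 833.6 CPM in the others (0.18, SE 0.0207, adjusted p = 7.11e-09), again without overlap. MVD, FDFT1, SREBF1, SC5D, EBP, MVK and LSS were higher by log2 fold changes of 0.23, 0.16, 0.15, 0.15, 0.11, 0.11 and 0.08, each highest in replicate 1 in 4 of 4 groups. FDPS was higher by 0.06 and lost its call without replicate 1 or 2 of TUNAR siRNAs with DMSO, or replicate 1 or 2 of the negative siRNA with 1-AKP.

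On the fatty acid side ACACA had 245.3 to 278.6 CPM in replicate 1 and 274.9 to 294.5 CPM in the others (-0.13, SE 0.0248, adjusted p = 2.97e-05) and was lowest in replicate 1 in 4 of 4 groups. FASN had 910.5 to 1007 CPM in replicate 1 and 933.2 to 1226 CPM in the others (-0.19, SE 0.0522, adjusted p = 0.0275), ELOVL6 was lower by a log2 fold change of -0.12 and ACLY by -0.06, with ELOVL6 not called by DESeq2 or limma. HSD17B7 (-0.11), NSDHL (-0.12) and PMVK (-0.10) were the lower members of the cholesterol branch in edgeR. DESeq2 called none of these 3 (adjusted p = 0.0571, 0.223 and 0.155). In all it called 12 members higher and 3 lower, and the share of all tested genes it called is not given. With library size as the only scaling HSD17B7 alone of the 3 was called. Calls near the threshold moved with single libraries: over the 12 fits that left out 1 library, NSDHL was called in 0, ELOVL6 in 4, FASN in 5, PMVK in 6 and ACLY in 10. ACACA and HSD17B7 were called in all 12 of these edgeR fits. ACLY was lost without replicate 1 of the negative siRNA in either treatment. PMVK was lost without any 1 library of the negative siRNA with DMSO, replicate 3 of TUNAR siRNAs with DMSO, or replicate 1 or 2 of TUNAR siRNAs with 1-AKP. FASN kept its call only without replicate 1 or 2 of the negative siRNA with DMSO, replicate 2 of TUNAR siRNAs with DMSO, or replicate 2 or 3 of the negative siRNA with 1-AKP, and ELOVL6 only without replicate 2 of the negative siRNA with DMSO, replicate 3 of TUNAR siRNAs with DMSO, or replicate 1 or 2 of TUNAR siRNAs with 1-AKP.

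Summed levels of the listed cell-type markers differed in replicate 1 too, some lists higher, some lower and some with overlapping ranges. The 4 markers of other islet cells analysed, of 5 listed, summed to 29.2 to 34.8 CPM in replicate 1 and 4.31 to 7.42 CPM in the others. Nearly all of it was SST, with GCG at 0.444 CPM or less and no values at hand for PPY. The 3 stromal markers analysed, of 4 listed, summed to 5.92 to 7.12 CPM in replicate 1 and 2.67 to 5.30 CPM in the others, with no values at hand for VIM. The 3 hepatocyte markers summed to 1347 to 1536 CPM in replicate 1 and 1074 to 1376 CPM in the others, which overlapped. Nearly all of it was TTR, with ALB at 0.378 CPM or less and APOA1 at 0.901 CPM or less. The 4 endothelial and blood markers summed to 40.2 to 56.8 CPM in replicate 1 and 25.2 to 46.6 CPM in the others, which overlapped. They were led by CD68, with CDH5 at 0.0630 CPM or less. The 8 beta-cell markers summed to 21594 to 22492 CPM in replicate 1 and 24032 to 26383 CPM in the others. The 3 duct and acinar markers analysed, of 5 listed, summed to 72.6 to 78.5 CPM in replicate 1 and 84.4 to 97.8 CPM in the others, with no values at hand for PRSS1 and CELA3A. Their part in the differences between replicate numbers was not tested. The further lipid genes moved with them, 17 of 33 higher and 2 lower in replicate 1 (57.6%, beside 41.5% of all tested genes), among them ME1 (0.64, SE 0.0573), NPC2 (0.49, SE 0.0276) and LPIN1 (0.37, SE 0.0236), and 5 of 9 oxidation genes were higher and none lower.

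**Figure D5:**
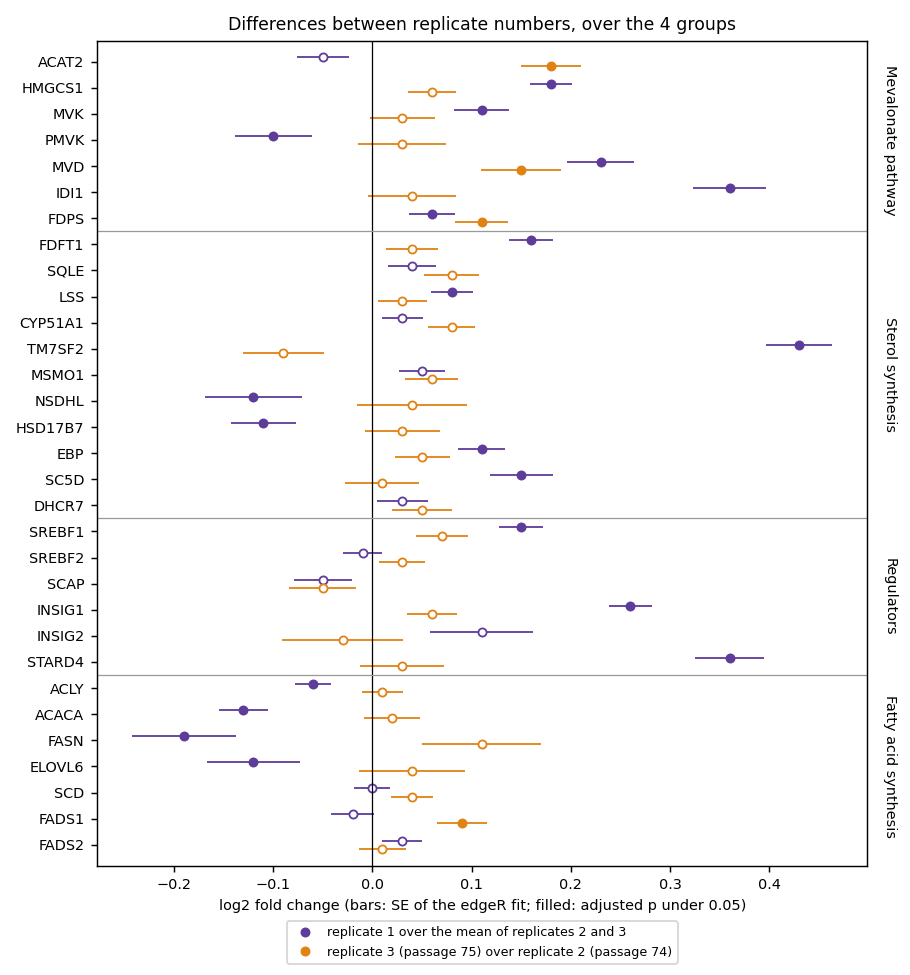
Log2 fold change of each gene between replicate numbers over the 4 groups, replicate 1 over the mean of replicates 2 and 3 and replicate 3 over replicate 2, bars giving the SE of the edgeR fit and filled points an adjusted p under 0.05. TM7SF2, IDI1, STARD4 and INSIG1 lie farthest to the right for replicate 1, and the called fatty acid enzymes for replicate 1 all lie left of 0.

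Replicate 3 at passage 75 differed much less from replicate 2 at passage 74. In this contrast 4 of 31 genes were higher and none lower, where 2.83% of all tested genes were called (159 higher, 294 lower). Of the 31 log2 fold changes 28 were above 0, beside 7934 of 15990 over all tested genes. ACAT2 averaged 149.2 ± 12.9 CPM in replicate 3 and 131.2 ± 10.2 CPM in replicate 2 (SD, n = 4 each; log2 fold change 0.18, SE 0.0298, adjusted p = 0.000155) and kept its call whichever 1 library was left out. MVD (0.15, adjusted p = 0.0284), FDPS (0.11, adjusted p = 0.0169) and FADS1 (0.09, adjusted p = 0.0457) lost theirs in 7, 5 and 7 of those 12 fits. The count was 1 without replicate 3 of the negative siRNA with DMSO, replicate 2 or 3 of TUNAR siRNAs with DMSO, or replicate 2 of the negative siRNA with 1-AKP. It was 2 without replicate 2 or 3, and 7 without replicate 1, of TUNAR siRNAs with 1-AKP. The share of all tested genes called in these fits is not given, so the counts do not show a shift particular to the members. The passages hold 1 replicate number each here, so passage and replicate number cannot be told apart.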

How the data were processed

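The authors deposited, per the file headers, an expected count for each gene and library, which is an estimated read count without normalisation, and FPKM, fragments scaled by gene length and library total. The deposited length column holds another unit, gene length in bases, and was not used in a test. The submitters' processing notes name BWA, RSEM and Bowtie and, as builds, hg19 and GRCh37, with versions and roles not given in the sources used here. Of 21508 Entrez identifiers 21386 were matched to RefSeq symbols; a gene missing from a library was taken as 0.

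Expected counts, of which 35.3% to 36.0% were not whole, were rounded. Genes were kept by filterByExpr (minimum count 10, minimum total 15), which left 15990 genes with 99.9% of the counts, and scaled by TMM (factors 0.990 to 1.014). A model of 4 group means over the 12 libraries was fitted with edgeR 4.0.16 (R 4.3.3; 8 residual degrees of freedom, common coefficient of variation 8.74%). Contrasts were tested by edgeR's quasi-likelihood test with Benjamini-Hochberg adjustment over all genes, threshold 0.05, checked on simulated counts. CPM values are from the same scaling. Pairs of libraries within groups had a chi-square per degree of freedom of 2.37 to 11.9, so none was a copy. The labels do not say that replicates were separate cultures, so the p-values measure the spread between these libraries, which may be technical. PCR duplicates were not separable, and the counts limit precision for low genes most.

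Pairing by replicate number was checked by correlating deviations from the group means. Across siRNAs the correlations for numbers 1, 2 and 3 were 0.416, 0.162 and 0.286 in 1-AKP and 0.376, 0.178 and 0.217 in DMSO, all over 0.1, so block values (6 residual degrees of freedom, coefficient of variation 2.86%) stand beside the siRNA results. Across treatments 1 of 3 lay below 0.1 with either siRNA (0.0634 and 0.0871), and the block is given among the alternatives. Replicate numbers were compared in the fit of group and number. Alternatives were DESeq2 1.42.0, limma 3.58.1 on log2(FPKM + 1) or log2(FPKM + 0.1), other scalings and filters, passage, and leaving out libraries. Fold changes with a test are given for members called with or without the block, and for up to 4 of lowest p elsewhere; other lipid genes are named where called, at most 6 a comparison. The members, lists and contrasts were chosen with earlier results of these data known. Promoter windows are from RefSeq on GRCh38.p14, another build than that of the files.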

Additional observations from a re-analysis of the deposited data

How the results depend on the processing

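Counts of called members below are in edgeR unless said. Most stand without the share of all tested genes called in the same fit. Such counts do not show whether members were called more often than other genes. No named member changed sign with a call under any alternative, and of 2602 values for named members 94 were as reported, 2099 stayed on their side of the threshold, 166 lost a call and 243 gained one. For 1-AKP averaged over siRNAs, the replicate block gave 22 members (13 higher, 9 lower, 71.0% against 39.7% of all genes, against 22.6% and 19.2% without it), with 6 of 7 mevalonate enzymes, 7 of 11 sterol enzymes, 4 of 6 regulators (SREBF1, STARD4, INSIG1 and SCAP) and 5 of 7 fatty acid enzymes called. The block gave 19 members with library size as the only scaling and 20 with limma; with TUNAR siRNAs it gave 15, 13 and 13, and with the negative siRNA 15, 15 and 13. Because replicate 2 lay below the cut of 0.1 across treatments, the other results for 1-AKP are given without the block. Leaving out libraries or replicate numbers, with or without the block, gave 1 to 19 members in the average (7 as reported), 0 to 15 with TUNAR siRNAs (3) and 0 to 14 with the negative siRNA (3). In the average, leaving out replicate 1, 2 or 3 gave 12, 1 and 1 members without the block and 19, 15 and 15 with it; with TUNAR siRNAs these were 9, 0 and 0 without and 15, 12 and 9 with it, and with the negative siRNA 9, 0 and 0 without and 14, 10 and 9 with it. Passage 74 alone gave 1, 0 and 0. With TUNAR siRNAs DESeq2 gave 5 and passage as a covariate 6. For the siRNAs, the block gave 1 member in 1-AKP, 1 in DMSO and 6 in the average, with library size alone 1, 1 and 5, and with limma 2 in the average; leave-outs gave 0 to 2, 0 to 1 and 0 to 4. The block changed no other count. For replicate 3 over replicate 2 (4 as reported), limma gave 1 and leave-outs gave 1 to 7. Leave-outs fit fewer libraries and the block has a smaller residual spread. Whether these or single libraries led to the shifts was not tested. Library size alone with the block, limma with the block, and leaving out replicate numbers without the block were chosen after seeing the data. At this depth and number of libraries, the smallest treatment change of a member called without the block was the -0.08 of ACLY. Larger changes with a wider spread were not called, such as -0.19 for TM7SF2 (SE 0.131) and 0.16 for FASN (SE 0.0719). Changes below that size, and larger ones in members of wide spread, may thus go unseen.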
